A study of Mus musculus with 8 samples.

Results

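Transcription factors of the B lineage were examined in spleen cells sorted for both CD3, a T cell receptor component, and B220, the B cell isoform of CD45. The set comprised the 9 genes Pax5, Ebf1, Spib, Spi1, Bcl11a, Pou2f2, Tcf3, Tcf4 and Mef2c, taken by symbol from an expression table of 17384 genes. All 9 passed the filter on low counts that left 12340 genes for testing. The series held 4 RNA-seq libraries titled EAF2Faslpr, from Eaf2-/-Faslpr mice, and 4 titled Faslpr, from Faslpr mice with no stated Eaf2 deletion. Both groups therefore carried the lpr allele of Fas, a death receptor gene whose loss lets T cells with B220 on their surface accumulate. Eaf2 encodes a partner of the ELL transcription elongation factors. The series was designed to look at apoptosis signalling. Age, sex, strain background, the extent of the Eaf2 deletion and the source of each replicate were not given in the labels, and p-values therefore cover no more than the spread among these libraries, which may be technical.

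In B cell development the E protein encoded by Tcf3 acts with Ebf1 to open the B cell programme, and Ebf1 and Pax5 then hold it in place while genes of other lineages are silenced. Spi1 (PU.1) and Spib are related ETS factors of B and myeloid cells, Bcl11a and Mef2c act in early lymphoid progenitors and in mature B cells, and Pou2f2 (Oct-2) binds the octamer of immunoglobulin promoters. T cells normally keep Pax5 and Ebf1 silent, whereas the E proteins are also part of the T cell programme.

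The proximal promoters of 2 genes are shown because they bracket the response: Pax5 had the largest and Spib the smallest fold among the members that rose. Both windows are on the minus strand, overlap no RefSeq gene and no GENCODE exon, and run from base -250 to base -21 relative to the annotated start. The first bases after that start occur in a GENCODE transcript of Spib but in none of Pax5. They are RefSeq sequence of build GRCm38.p6, at chr4:44710715-44710944 for Pax5 and chr7:44532092-44532321 for Spib. Capitals mark the ETS core, GGAA on either strand, the letters that ETS factors in general recognise, PU.1 and Spi-B among them.
Pax5: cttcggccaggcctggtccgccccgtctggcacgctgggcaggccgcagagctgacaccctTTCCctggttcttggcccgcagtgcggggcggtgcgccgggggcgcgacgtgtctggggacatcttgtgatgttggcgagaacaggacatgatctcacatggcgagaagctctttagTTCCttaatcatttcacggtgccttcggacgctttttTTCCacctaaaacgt
Spib: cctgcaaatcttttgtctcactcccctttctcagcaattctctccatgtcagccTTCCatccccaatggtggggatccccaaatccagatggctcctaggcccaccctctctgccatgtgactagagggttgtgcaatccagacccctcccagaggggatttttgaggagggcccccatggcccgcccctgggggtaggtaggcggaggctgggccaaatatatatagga

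The Pax5 window held 3 ETS cores and the Spib window 1. Among all 32851 mouse promoter windows of the same length the median was 2 cores, and 91.9% held at least 1. The Pax5 window was 60.4% G or C with 19 CG pairs, against 57.0% and 2 pairs in the Spib window and medians of 51.7% and 5 pairs over all windows. The largest number of cores was in the first of the Mef2c windows, with 9, which 0.280% of all windows reach. Windows were found for 7 of the 9 members, 10 windows in all.

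Longer factor motifs were searched on both strands of these 10 windows. They were the POU octamer ATGCAAAT, the PU.1 site GAGGAAGT, which contains the ETS core, the EBF palindrome (TCCC and GGGA parted by any 2 bases), the MEF2 site (CTA and TAG parted by any 4 bases) and the E box CAGGTG. None of these letters occurred in the 10 windows. Over all windows the octamer was found in 1.53%, the PU.1 site in 2.17%, the EBF site in 0.712%, the MEF2 site in 3.0% and the E box in 16.0%. The ETS core was searched after these 5 motifs had given no match.

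Depth was similar in all libraries, between 15.6 and 18.6 M (megareads) of estimated reads, and 3 reads, taken as the floor of detection, corresponded to between 0.161 and 0.193 counts per megaread (CPM). Eaf2 itself measured 4.74 ± 1.05 CPM (SD, n = 4) in EAF2Faslpr and 25.5 ± 4.50 CPM in Faslpr, a log2 fold change of -2.43 (SE 0.18, edgeR adjusted p = 2.9e-05), with no overlap. Fas measured 64.2 ± 6.87 and 54.3 ± 9.82 CPM (adjusted p = 0.276). The T cell label was borne by the transcripts: Cd3e measured 391 ± 25.6 and 419 ± 38.5 FPKM (fragments per kilobase of transcript per megaread, SD, n = 4). The B cell gene Ms4a1, which encodes CD20, measured 14.7 ± 5.23 FPKM in EAF2Faslpr and 3.26 ± 1.10 in Faslpr. EAF2Faslpr replicate 3 stood apart from the other libraries of its group in B cell, macrophage and neutrophil transcripts, so results on the factors and on the main lists are also given without it.

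Of the 9 factors, 6 were higher in EAF2Faslpr cells at an adjusted p under 0.05 (edgeR quasi-likelihood test, Benjamini-Hochberg over all 12340 genes): Pax5, Bcl11a, Spi1, Ebf1, Mef2c and Spib. None was lower, with 1, Tcf3, lower at an unadjusted p under 0.05, and none lower by DESeq2 or limma-voom. Over all genes tested 12.1% were called, 7.14% higher and 4.96% lower. The median log2 fold change was 1.43 over the 9 factors and -0.013 over all genes tested, of which 47.5% had a positive value. In 5 of the 9, all higher in EAF2Faslpr, no library of one group reached the CPM range of the other, against 17.7% of all genes tested in either direction and 9.71% higher. All of the 6 but Spib kept their call in each of 14 other fits, and Spib kept it in 5. In bulk RNA, more cells of a type and more RNA per cell cannot be told apart.

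**Figure D1:**
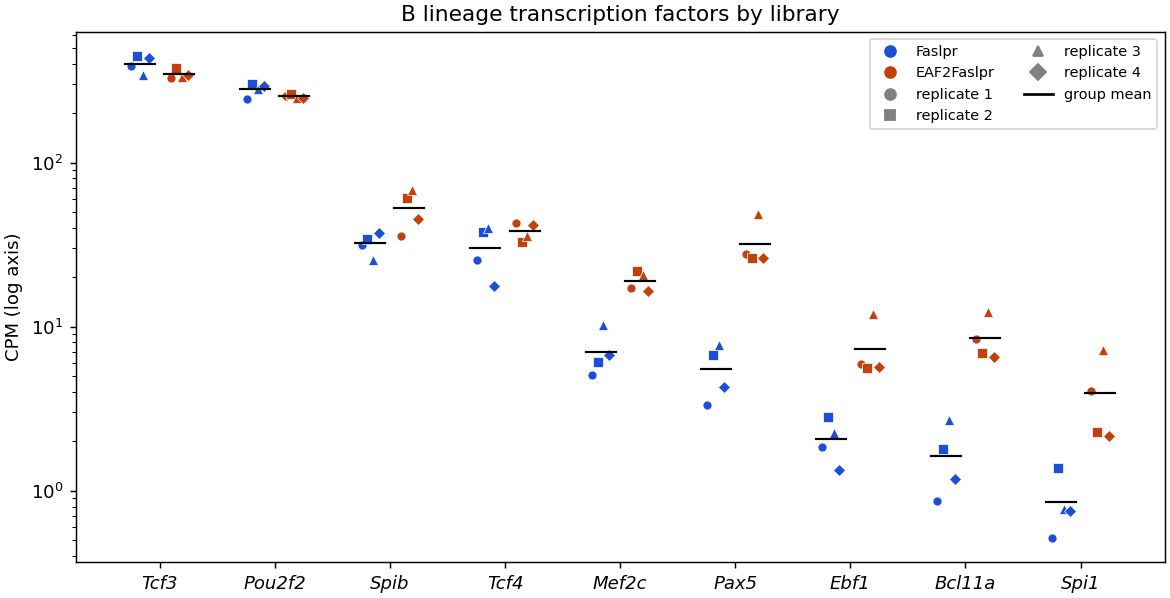
CPM of each factor in each library on a log axis, Faslpr in blue and EAF2Faslpr in orange, with the replicate number as the marker shape and the group mean as a black bar. Tcf3 and Pou2f2 sit at 244 CPM or above in all 8 libraries, while Pax5, Ebf1, Spi1, Bcl11a and Mef2c are lower and separate by group.

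The factors fell into an abundant and a scarce set in the Faslpr cells. Per length, Tcf3 was highest at 139 ± 16.0 FPKM (SD, n = 4), followed by Pou2f2 at 45.7 ± 3.03, Spib at 11.4 ± 1.81 and Tcf4 at 4.14 ± 1.5 FPKM, with no overlap between neighbours in this order. The scarce set began with Mef2c at 1.0 ± 0.41 FPKM. It went on with Pax5 at 0.675 ± 0.254, Spi1 at 0.608 ± 0.258, Bcl11a at 0.360 ± 0.125 and Ebf1 at 0.285 ± 0.125 FPKM, and here each gene overlapped the next. The 5 scarce genes are the 5 whose groups did not overlap in CPM.

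In EAF2Faslpr cells the first 3 places were held by the same genes. Tcf3 measured 121 ± 7.51, Pou2f2 42.0 ± 3.47 and Spib 18.9 ± 5.47 FPKM, each clear of the next. From Tcf4, at 5.31 ± 0.640 FPKM, down through Pax5 at 3.94 ± 1.37, Mef2c at 2.93 ± 0.446, Spi1 at 2.83 ± 1.70, Bcl11a at 2.02 ± 0.673 and Ebf1 at 1.21 ± 0.516 FPKM, neighbours overlapped. Tcf4 overlapped the scarce set through EAF2Faslpr replicate 3 alone, where Pax5 and Spi1 (5.19 FPKM) were above Tcf4 (5.05 FPKM). In EAF2Faslpr replicates 1, 2 and 4 Tcf4 was above every scarce gene. Tcf4 was above Mef2c in all 4 libraries of each group.

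Pax5 encodes the paired box factor that commits progenitors to the B lineage and keeps mature B cells as B cells. It measured 27.6, 26.2, 48.3 and 26.1 CPM in EAF2Faslpr replicates 1 to 4 and 3.32, 6.67, 7.70 and 4.30 CPM in Faslpr replicates 1 to 4. Every EAF2Faslpr library lay above every Faslpr library, with replicate 3 the highest of both groups. The log2 fold change was 2.54 (SE 0.29), 5.82-fold, with an edgeR adjusted p of 0.000467. Without EAF2Faslpr replicate 3 it was 2.27 (adjusted p = 0.000908).

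Ebf1 encodes the factor that acts with E proteins upstream of Pax5. Its level was 5.91, 5.57, 11.9 and 5.69 CPM in the EAF2Faslpr libraries and 1.83, 2.80, 2.26 and 1.34 CPM in the Faslpr libraries. EAF2Faslpr replicates 1, 2 and 4 lay close together with replicate 3 above them, and the groups did not overlap. Ebf1 was 3.53-fold higher, a log2 fold change of 1.82 (SE 0.31, edgeR adjusted p = 0.00436), and 1.47 without replicate 3 (adjusted p = 0.00682).

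Spi1 encodes PU.1, whose dose separates macrophage from B cell fates in progenitors. It measured 4.05, 2.29, 7.17 and 2.15 CPM in EAF2Faslpr and 0.516, 1.37, 0.770 and 0.753 CPM in Faslpr libraries. The EAF2Faslpr libraries varied more than 3-fold among themselves, yet the lowest was above the highest Faslpr library. Spi1 was 4.58-fold higher, a log2 fold change of 2.2 (SE 0.45, edgeR adjusted p = 0.0104), and 1.72 without replicate 3 (adjusted p = 0.0212). Counts were low, from 9 to 130 estimated reads per library.

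Spib encodes Spi-B, the PU.1 relative of B cells and plasmacytoid dendritic cells. Its level was 35.8, 60.9, 68.4 and 45.2 CPM in EAF2Faslpr and 31.5, 34.2, 25.4 and 37.3 CPM in Faslpr libraries. The lowest EAF2Faslpr library, replicate 1, lay below the highest Faslpr library, replicate 4, so the groups overlapped. The log2 fold change of 0.71 (SE 0.19), 1.64-fold, passed with an edgeR adjusted p of 0.0375. The call was lost by limma-voom (0.69, adjusted p = 0.0503) and in 6 of 8 fits that left out 1 library, those without EAF2Faslpr replicates 2, 3 or 4 or Faslpr replicates 1, 2 or 3. The highest adjusted p among these was 0.101, at a log2 fold change of 0.56, without EAF2Faslpr replicate 3.

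Bcl11a encodes a zinc finger repressor needed for B cell development. It measured 8.35, 6.93, 12.3 and 6.57 CPM in EAF2Faslpr and 0.860, 1.79, 2.70 and 1.18 CPM in Faslpr libraries. In both groups replicate 3 was the highest and the groups were well apart. Bcl11a was 5.22-fold higher, a log2 fold change of 2.38 (SE 0.34, edgeR adjusted p = 0.00166), and 2.15 without EAF2Faslpr replicate 3 (adjusted p = 0.00486).

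Mef2c encodes a MADS box factor that acts downstream of the B cell receptor. Its level was 17.2, 21.9, 20.5 and 16.6 CPM in EAF2Faslpr and 5.10, 6.08, 10.3 and 6.72 CPM in Faslpr libraries. Here EAF2Faslpr replicate 3 did not stand out: replicate 2 was higher, and the 4 libraries had a mean of 19.0 ± 2.58 CPM (SD, n = 4). The log2 fold change was 1.43 (SE 0.20), 2.70-fold (edgeR adjusted p = 0.00166), and 1.39 without replicate 3 (adjusted p = 0.00628).

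The E protein genes did not pass. Tcf3, which encodes E12 and E47, measured 327, 376, 330.2 and 344 CPM in EAF2Faslpr and 387, 444, 343 and 430.5 CPM in Faslpr libraries. The groups overlapped, and the log2 fold change was -0.22 (SE 0.09; edgeR adjusted p = 0.161). Without Faslpr replicate 3, the lowest of its group, it was -0.29 and passed (adjusted p = 0.0490). Tcf4, which encodes E2-2, measured 42.7, 32.7, 35.7 and 41.5 CPM in EAF2Faslpr and 25.6, 38.0, 40.1 and 17.7 CPM in Faslpr libraries. The Faslpr libraries of Tcf4 spread over more than 2-fold and enclosed EAF2Faslpr replicates 2 and 3, and the log2 fold change was 0.33 (SE 0.22; adjusted p = 0.410).

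Pou2f2, the gene of Oct-2, had the smallest fold change of the 9. It measured 252.9, 263, 247 and 248 CPM in EAF2Faslpr and 244, 299, 281 and 292 CPM in Faslpr libraries. The lowest value of all belonged to Faslpr replicate 1 and the other 3 Faslpr libraries lay above the EAF2Faslpr range. The log2 fold change was -0.14 (SE 0.08; edgeR adjusted p = 0.277). Without EAF2Faslpr replicate 3 it was -0.13, with -0.20 for Tcf3 and 0.36 for Tcf4, none of them called.

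**Figure D2:**
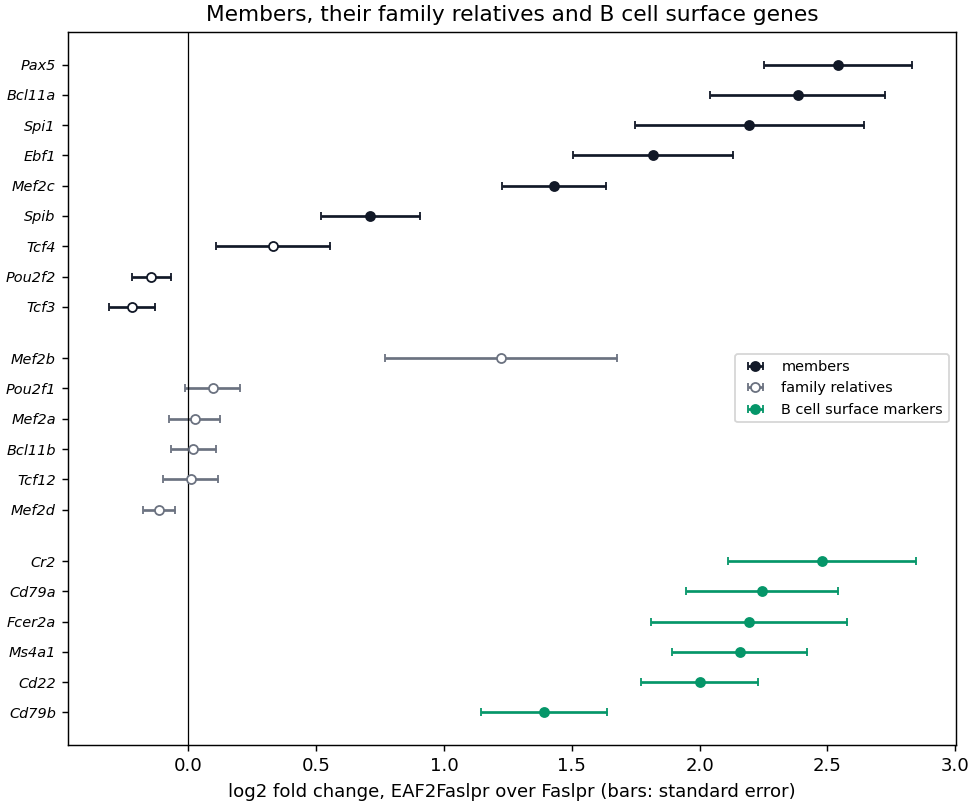
Log2 fold change of EAF2Faslpr over Faslpr on the horizontal axis for the 9 factors, their tested family relatives and 6 B cell surface genes, with standard errors as bars. Filled points have an edgeR adjusted p under 0.05: 6 of 9 factors, 0 of 6 relatives and all 6 surface genes shown.

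Genes of the same families were compared with the members. Of 11 relatives, 10 were in the table and 6 passed the filter, and none was called (edgeR; 1 higher at an unadjusted p under 0.05; none by DESeq2 or limma-voom), with a median log2 fold change of 0.02. Bcl11b, the T lineage counterpart of Bcl11a, measured 530 ± 26.6 and 522 ± 58.7 CPM (SD, n = 4), a log2 fold change of 0.02 beside the 2.38 of Bcl11a. Per length it measured 66.1 ± 7.02 FPKM in Faslpr cells, where Bcl11a measured 0.360. Tcf12, the third E protein gene, had a log2 fold change of 0.01 and Pou2f1, the ubiquitous Oct-1, 0.10. Mef2a had 0.03 and Mef2d -0.11, beside 1.43 for Mef2c.

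Mef2b, a relative used by germinal centre B cells, was scarce at 2.03 ± 0.459 and 0.856 ± 0.697 CPM (SD, n = 4). It did not pass at a log2 fold change of 1.22 (SE 0.45, edgeR adjusted p = 0.118), though it was called without Faslpr replicate 4 and without both replicates numbered 4. Ebf2, Ebf3, Ebf4 and Spic were under the filter, and Pou2f3 is not analysed here.

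Other regulators of B cell genes formed a list of 21, all tested. Of these 5 rose and none fell (edgeR; 2 fell at an unadjusted p under 0.05, none by DESeq2 or limma-voom), and the median log2 fold change was 0.07. Ciita, the master switch of MHC class II genes, was 3.92-fold higher at 23.6 ± 3.18 against 6.01 ± 1.46 CPM (SD, n = 4). The adaptor gene Lmo2 was 5.28-fold higher (7.22 ± 3.76 against 1.36 ± 0.402 CPM) and the NF-kB subunit gene Rel 1.57-fold higher (127 ± 7.24 against 80.5 ± 16.8 CPM). Irf8 and Zeb2 were the other two, and Zeb2 (edgeR adjusted p = 0.0256) lost its call in 4 of the 8 fits that left out 1 library, with an adjusted p up to 0.078. Leaving out EAF2Faslpr replicate 3, 4 rose. Ets1, the most abundant at 1897 and 1647 CPM, did not pass, nor did Pou2af1, the coactivator of Oct factors, at 1017 and 1154 CPM.

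Genes that these factors are known to activate in B cells made up a list of 16, and 14 of them rose, with a median log2 fold change of 1.89. None fell in edgeR, also at an unadjusted p under 0.05, or by DESeq2 or limma-voom. Cd22, an inhibitory co-receptor, was 4.0-fold higher (66.9 ± 15.9 against 16.7 ± 5.25 CPM, SD, n = 4), the Src family kinase gene Blk 4.32-fold (17.1 ± 4.73 against 3.96 ± 1.27 CPM) and Ms4a1 4.46-fold (42.8 ± 14.8 against 9.58 ± 3.19 CPM). In the fit without EAF2Faslpr replicate 3, 13 rose, with a median of 1.62. Vpreb3 missed the threshold (adjusted p = 0.0525). The most abundant gene of the list, Ralgps2, measured 151 ± 28.4 and 176 ± 11.3 CPM with a log2 fold change of -0.22 (adjusted p = 0.325).

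None of the tested genes on a short list of those that Pax5 is known to repress was called lower. Of 8 listed, 6 were tested, and Emb, an immunoglobulin superfamily membrane protein gene, was 3.96-fold higher at 15.4 ± 5.07 against 3.87 ± 1.71 CPM (SD, n = 4). None was lower in edgeR at an unadjusted p under 0.05, or by DESeq2 or limma-voom. DESeq2 called 3 higher, and 2 were called without EAF2Faslpr replicates 1 or 2 or Faslpr replicate 3. The most abundant, the T cell costimulator gene Cd28, measured 456 ± 47.1 and 452 ± 87.8 CPM, a log2 fold change of 0.01.

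E proteins are held in check by the ID proteins and form complexes with LMO2, LYL1 and LDB1. Of 8 such genes 5 were tested and 3 rose: Lmo2, Id2 and Lyl1. Id2 was 2.33-fold higher at 52.5 ± 17.1 against 22.5 ± 4.43 CPM (SD, n = 4). Lmo2 and Id2 also rose without EAF2Faslpr replicate 3. Lyl1 was 2.26-fold higher (4.31 ± 1.66 against 1.90 ± 0.543 CPM; edgeR adjusted p = 0.0331) and lost its call in 5 of the 8 fits that left out 1 library. Id3, at 176 ± 35.4 and 185 ± 25.8 CPM, had a log2 fold change of -0.07, and Ldb1 was the most abundant of the list at 325 and 313 CPM.

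The transcription factors of the T lineage gave a mixed picture. Of 12 tested, 4 rose and 1 fell. Satb1, a chromatin organiser of thymocytes, was 4.46-fold higher (19.8 ± 3.39 against 4.42 ± 1.22 CPM, SD, n = 4), Gata3 2.98-fold (5.52 ± 0.933 against 1.85 ± 0.549 CPM) and Rora 2.27-fold (3.71 ± 0.890 against 1.63 ± 0.347 CPM). Zbtb7b (edgeR adjusted p = 0.0266) lost its call in 5 of the 8 fits that left out 1 library, with an adjusted p up to 0.0785, and Runx3 was 1.22-fold lower. Without EAF2Faslpr replicate 3, 3 rose and 1 fell. Eomes, the most abundant at 1540 and 1794 CPM, did not pass. Without both replicates numbered 4 the counts were 2 and 0.

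B cell surface genes rose in the same libraries. All 7 genes of this list, among them Cd79a, Cd79b, Ms4a1 and Cd22, rose, with a median log2 fold change of 2.19, and all 7 rose without EAF2Faslpr replicate 3, with a median of 1.88. Their summed level was 264, 271, 522 and 281 CPM in EAF2Faslpr and 53.0, 79.4, 112 and 72.3 CPM in Faslpr libraries, 4.23-fold apart at the means. The groups did not overlap, and the difference of 2.07 on the log2 scale had an exact two-sided permutation p of 0.0286, the smallest that 70 orderings allow. Each of the 7 genes already separated the groups in these libraries, so this p was fixed beforehand and adds no support.

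Each factor was then expressed as a percent of this B cell surface sum in the same library. Pax5 stood at 10.4, 9.64, 9.25 and 9.26% of the sum in EAF2Faslpr and at 6.27, 8.41, 6.90 and 5.95% in Faslpr libraries. The groups did not overlap, and EAF2Faslpr replicate 3, the highest in Pax5 itself, had the lowest percentage of its group. The difference in log2 ratio was 0.50 (exact permutation p = 0.0286, adjusted p = 0.0514 over the 9 factors). Bcl11a stood between 2.34 and 3.16% in EAF2Faslpr and between 1.62 and 2.42% in Faslpr libraries, with overlap, and its difference was 0.41 (exact permutation p = 0.0857, adjusted p = 0.110).

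Spi1 and Ebf1 had the smallest differences in this ratio. Spi1 stood between 0.765 and 1.53% in EAF2Faslpr and between 0.690 and 1.73% in Faslpr libraries, a log2 difference of 0.04 (exact permutation p = 0.943), whose sign turned when single libraries were left out. Ebf1 stood between 2.02 and 2.27% and between 1.86 and 3.53%, a log2 difference of -0.28 (exact permutation p = 0.40). With the authors' FPKM in place of CPM the Ebf1 difference was 0.12 (exact permutation, adjusted p = 0.771).

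For the other 5 factors the ratio was lower in EAF2Faslpr at the mean. Mef2c stood between 3.93 and 8.07% in EAF2Faslpr and between 7.66 and 9.62% in Faslpr libraries, a log2 difference of -0.59 (exact permutation p = 0.0571, adjusted p = 0.0857). Spib stood between 13.1 and 22.5% and between 22.8 and 59.5%, a log2 difference of -1.39. The differences were -1.67 for Tcf4, -2.21 for Pou2f2 and -2.28 for Tcf3. For Spib, Tcf4, Pou2f2 and Tcf3 the exact permutation p was 0.0286 and the adjusted p 0.0514, so none of the 9 ratios passed the threshold after adjustment. The sum in these ratios was itself higher by 2.07 on the log2 scale. A gene whose own level changed little, such as Pou2f2 or Tcf3, therefore has a lower ratio through the sum alone. Without EAF2Faslpr replicate 3 none passed either, at 0.52 for Pax5, 0.45 for Bcl11a, -0.40 for Mef2c and -1.29 for Spib, a comparison of 3 against 4 libraries.

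Pax5, Bcl11a, Spib, Pou2f2, Tcf3 and Tcf4 did pass (exact permutation, adjusted p = 0.0429) with Cr2 and Fcer2a left out of the sum, with FPKM, or without Faslpr replicate 3. For Spib, Pou2f2, Tcf3 and Tcf4 the lower ratio restates that the sum rose more than the gene, and is no separate result on these factors. The adjustment counts these ratios as well, so the passing of Pax5 and Bcl11a rests partly on them and adds no support. Under FPKM the Pax5 difference was 0.58 and that of Bcl11a 0.51.

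**Figure D3:**
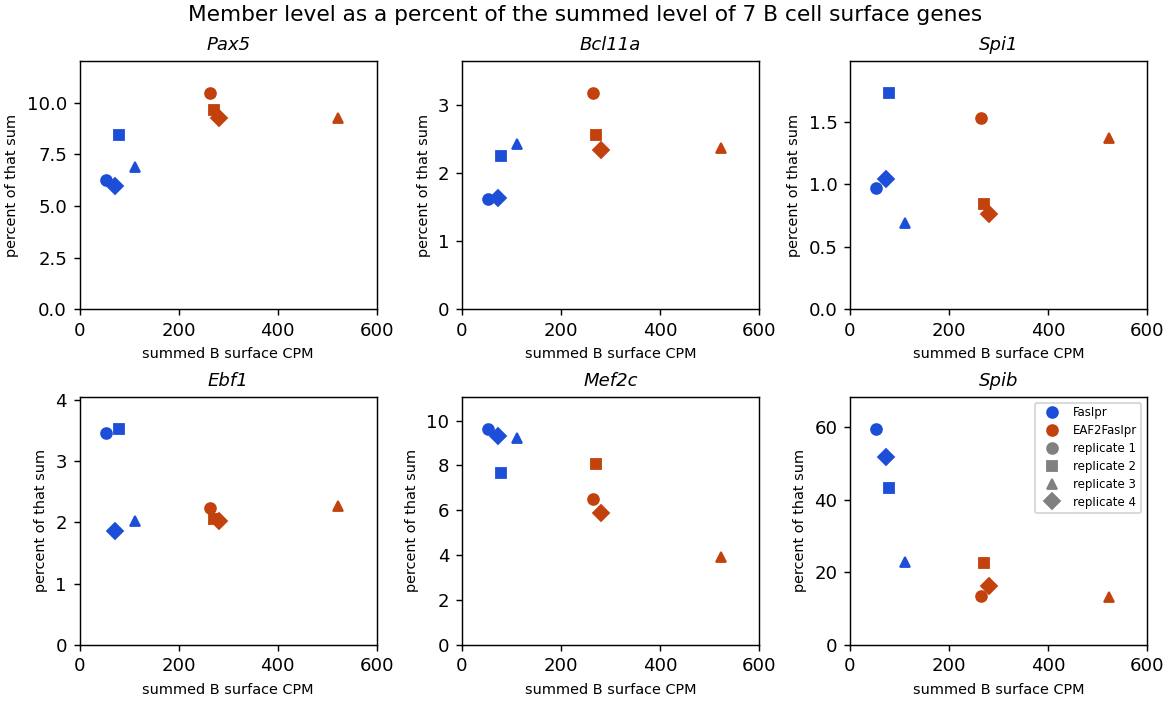
Level of 6 factors as a percent of the summed CPM of 7 B cell surface genes (vertical axis) against that sum in CPM (horizontal axis), 1 point per library, Faslpr in blue and EAF2Faslpr in orange, marker shape by replicate. Pax5 lies between 9.25 and 10.4% in EAF2Faslpr and between 5.95 and 8.41% in Faslpr, while Spib lies between 13.1 and 22.5% in EAF2Faslpr and between 22.8 and 59.5% in Faslpr.

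Markers of other cells that use these factors were measured in the same libraries. Myeloid cells express Spi1, and of 11 tested macrophage and monocyte markers 3 rose, among them Lyz2 and Cebpb, with 1 by limma-voom or without Faslpr replicates 1 or 2, and 2 without EAF2Faslpr replicate 3. The 12 listed markers summed to 62.5, 67.1, 142 and 54.5 CPM in EAF2Faslpr and between 49.4 and 59.9 CPM in Faslpr libraries. Cd68, the most abundant, measured 27.2 ± 3.70 and 32.0 ± 5.56 CPM (SD, n = 4). The neutrophil sum was 133 CPM in EAF2Faslpr replicate 3, between 15.5 and 21.4 CPM in the other 3 and between 14.3 and 19.8 CPM in Faslpr libraries. None of the 6 tested neutrophil markers was called (edgeR; 5 higher at an unadjusted p under 0.05; 2 higher by DESeq2; none by limma-voom), but 3 were without EAF2Faslpr replicate 1 and 4 without replicate 2. Spi1, Pax5, Ebf1, Bcl11a and Spib were each highest in that same replicate 3, and all but Spib passed without it. The part of myeloid RNA in the Spi1 value was not tested.

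Plasmacytoid dendritic cells use Tcf4, Spib, Bcl11a and Mef2c. Of 6 tested markers of these cells 3 rose, Runx2, Ccr9 and Ly6d, and none fell (edgeR; 2 lower at an unadjusted p under 0.05; 1 lower by DESeq2; none by limma-voom). Without EAF2Faslpr replicate 3, Faslpr replicate 1 or Faslpr replicate 2, 1 rose, and without EAF2Faslpr replicate 2 or Faslpr replicate 3, 1 fell. The list sums were 145 to 176 CPM in EAF2Faslpr and 145 to 173 CPM in Faslpr libraries, and overlapped. The defining marker Siglech had 89.1 estimated reads over all 8 libraries and Klk1 10.1, both under the filter. Pacsin1 was the most abundant at 91.8 ± 14.9 and 121 ± 13.1 CPM (SD, n = 4). Ly6d also marks B lineage progenitors. Conventional dendritic cell markers summed to 19.5 to 40.6 CPM and 27.6 to 48.4 CPM, mostly Itgax, and none of 3 was called (edgeR; none at an unadjusted p under 0.05, none by DESeq2 or limma-voom).

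Antibody-secreting cells switch Pax5 and Ebf1 off. Of 6 tested markers Xbp1, a factor of the secretory programme, was lower at 208 ± 23.6 against 290 ± 12.7 CPM (SD, n = 4; log2 fold change -0.48, edgeR adjusted p = 0.00497). Without EAF2Faslpr replicate 1 or Faslpr replicate 3, and by DESeq2, 2 were lower. None was higher in edgeR, also at an unadjusted p under 0.05, or by DESeq2 or limma-voom. Sdc1, the most abundant, measured 365 ± 31.8 and 439 ± 43.9 CPM. The 7 listed markers summed to 642 to 787 CPM in EAF2Faslpr and 808 to 937 CPM in Faslpr libraries, without overlap. Sdc1 and Xbp1 made up most of these sums. Jchain, Mzb1, Prdm1 and Derl3 were not called (edgeR adjusted p from 0.382 to 0.906), and Tnfrsf17 was under the filter. Stromal and endothelial markers summed to 127 to 147 CPM in EAF2Faslpr and 58.4 to 86.7 CPM in Faslpr libraries. Of 3 tested, 2 rose, Col1a1 2.31-fold and Pecam1 1.82-fold. Pecam1, at 112 ± 5.41 and 61.7 ± 12.8 CPM, made up most of these sums. Col1a2 was not called (log2 fold change -0.10, edgeR adjusted p = 0.811). Cdh5, Kdr, Pdgfrb and Cxcl12 were under the filter, with 15, 5, 38 and 25 estimated reads over all 8 libraries.

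T cell markers had overlapping sums. These were 3709 to 3947 CPM in EAF2Faslpr and 3575 to 4335 CPM in Faslpr libraries, and none of the 8 tested was called (edgeR; 1 higher and 1 lower at an unadjusted p under 0.05; 1 lower by DESeq2; none by limma-voom). Without Faslpr replicate 4, 1 was called higher, and without Faslpr replicate 3, 1 was higher and 1 lower. Trac, Trbc1 and Trbc2 are not analysed here. Lck, the T cell Src family kinase gene, was the most abundant at 1136 ± 83.9 and 1156 ± 98.4 CPM (SD, n = 4). Erythroid and platelet markers summed to 4.8 to 17.5 CPM and 5.06 to 17.7 CPM, with Hbb-bs the most abundant, and none of 3 was called (edgeR; none at an unadjusted p under 0.05, none by DESeq2 or limma-voom). No listed marker in the table was at 0 in all libraries. The part of any of these cell types in the factor values was not tested.

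**Figure D4:**
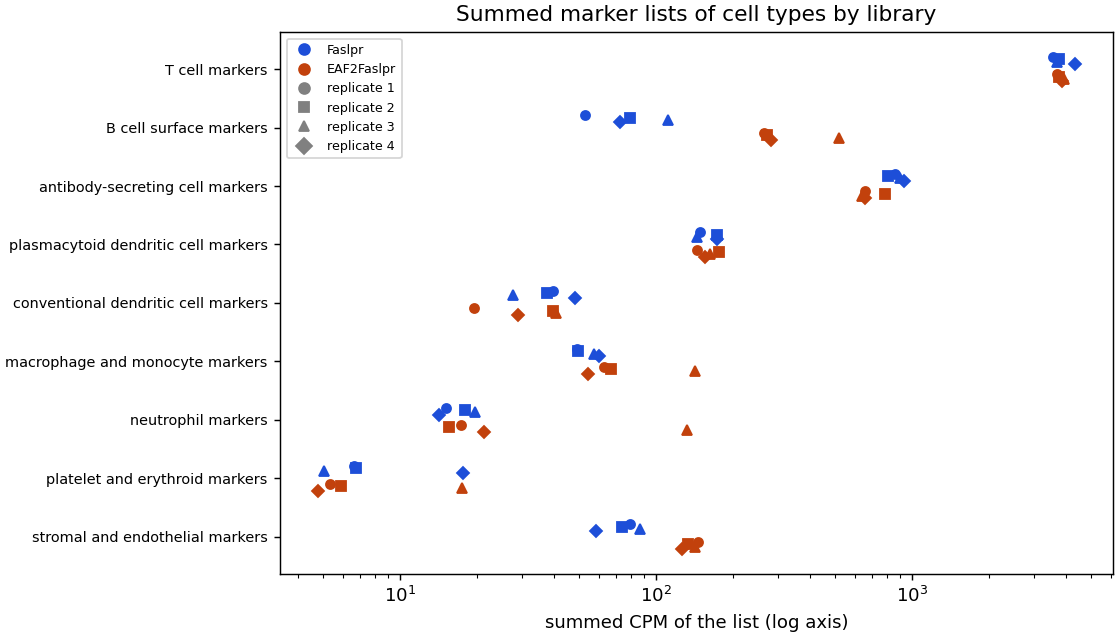
Summed CPM (log axis) of all listed markers found in the table for 9 cell types, tested or not, 1 point per library, Faslpr in blue and EAF2Faslpr in orange, marker shape by replicate. The B cell sum and the stromal sum, mostly Pecam1, are higher in all EAF2Faslpr libraries. The antibody-secreting cell sum, mostly Sdc1 and Xbp1, is lower in all of them. The neutrophil sum of EAF2Faslpr replicate 3, at 133 CPM, stands far from the other 7 libraries.

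The pattern of each factor over the 8 libraries was compared with that of 9676 other genes averaging at least 5 CPM. Likeness was the root mean square (RMS) difference in log2 CPM after centring each gene on its mean. The nearest to Pax5 were Icosl, the ligand of the costimulator ICOS, at 0.19, and the complement receptor gene Cr2 at 0.24. Icosl was also nearest to Bcl11a, at 0.16, ahead of Ms4a1 and Cd22. Ebf1 was nearest to Aldh2, an aldehyde dehydrogenase gene, at 0.12, then to the cannabinoid receptor gene Cnr2 and to Blk. Spi1 had no neighbour closer than 0.30, Fcrl1, followed by Aldh2 and Fcmr. Low read numbers are shared by the scarce genes and add to their distances.

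Mef2c was nearest to Rasgrp3 and Plcg2, both signalling genes of the B cell receptor, at 0.11 each, and then to Pld4. Spib was nearest to Rnf130 at 0.13, Dzip1 at 0.17 and Tspoap1 at 0.19. Tcf4 was nearest to Cacna1d at 0.12, Trim2 at 0.12 and Efhc2 at 0.18. The abundant factors had the closest neighbours: Gnai2, Spryd3 and Zfp689 at 0.04 for Pou2f2, and Fem1a at 0.04 with Zfand3 and Cwc22 at 0.05 for Tcf3.

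Among the factors themselves the closest pairs were Pou2f2 with Tcf3, at an RMS difference of 0.11, and Pax5 with Bcl11a, at 0.15. The farthest was Pax5 with Tcf3, at 1.46. These values describe 8 libraries in 2 groups and carry no test.

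**Figure D5:**
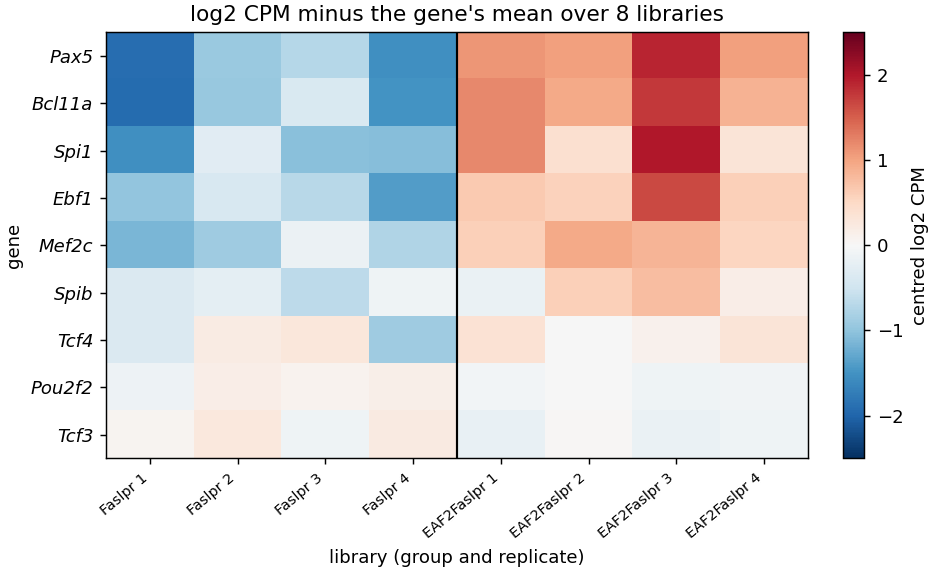
Log2 CPM of each factor minus its mean over the 8 libraries, with libraries in columns, genes in rows and colour from blue (below the mean) to red (above). Pax5, Bcl11a, Spi1, Ebf1 and Mef2c are above their mean in all 4 EAF2Faslpr libraries, and Pou2f2 and Tcf3 stay near white throughout.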

How the data were processed

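RNA came from 8 libraries of sorted B220+CD3+ spleen cells, prepared with TRIzol and a DNBSEQ mRNA kit per the labels' protocols. The authors deposited estimated counts (RSEM expected counts) and FPKM per gene. The submitters' processing notes name HISAT2 2.2.1, RSEM 1.3.1, Bowtie2 2.4.5 and build GRCm39, with no roles. Strand, annotation and filters: not given in the sources used here. RSEM shares multiply matching reads by estimate, so overlapping or near-identical genes are uncertain. Another 16 per-sample columns were left unused.

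Expected counts were rounded, filtered (filterByExpr), scaled by TMM and tested with edgeR 4.0.16 (R 4.3.3) quasi-likelihood tests, Benjamini-Hochberg adjusted. CPM is per megaread of the tested genes. SE is the log2 fold change over the square root of F. Alternatives were other size factors, DESeq2 1.42.0, limma 3.58.1 (voom), no filter, a replicate block, and libraries left out. Scripts were tested on simulated data. Ratios used exact two-sided permutation. FPKM served to compare levels between genes. Floors cover counting error only.

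The members and lists were chosen with earlier results of these data known. Named genes were the members, their relatives, Eaf2, Fas, the most abundant and up to 3 called genes of each list by smallest p (2 for cell types), and 3 nearest patterns per member. Some genes the rule took are not reported here. Irf8, Zeb2, Zbtb7b, Runx3, Pou2af1, Vpreb3, Id3, Cebpb, Ly6d, Siglech, Klk1 and Cd3e were named after their values were seen. So were Col1a2, Cdh5, Kdr, Pdgfrb, Cxcl12, Jchain, Mzb1, Prdm1, Derl3 and Tnfrsf17. Promoters are RefSeq (GRCm38.p6), apart from the authors' build, and their last 20 upstream bases were not used.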

Additional observations from a re-analysis of the deposited data

Results flagged for a closer look

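In each group of 4 libraries a value was picked out where it lay further from its nearest neighbour than Dixon's test allows. Of 48 groups examined, 10 (20.8%) met this, where chance gives about 1 in 20 for a single group. Most of the 10 belonged to EAF2Faslpr replicate 3. Some lists share genes and the same libraries recur, so the groups are not independent and this share is no test.

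Among the factors, Pax5 at 48.3 CPM and Ebf1 at 11.9 CPM were each far above the other 3 EAF2Faslpr libraries in replicate 3. In that library the B cell surface sum was 522 CPM and the sum of B lineage target genes 869 CPM, both the highest of the group by far. The macrophage and monocyte sum of 142 CPM, the neutrophil sum of 133 CPM and the platelet and erythroid sum of 17.5 CPM were also set apart there. The sum of genes repressed by Pax5 was 864 CPM in the same library, far below the others of the group, which lay between 956 and 972 CPM. Faslpr libraries had sums between 665 and 926 CPM, a range that holds this value. The T cell costimulator gene Cd28, at group means of 456 CPM in EAF2Faslpr and 452 CPM in Faslpr, was the largest part of these sums. A link between this sum and Pax5 was not tested.

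Elsewhere, the antibody-secreting cell sum of EAF2Faslpr replicate 2, at 787 CPM, was above the other 3 libraries, which lay between 642 and 658 CPM. The platelet and erythroid sum of Faslpr replicate 4, at 17.7 CPM, was above the rest of its group, between 5.06 and 6.73 CPM.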

How the results depend on the processing

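Pax5, Ebf1, Spi1, Bcl11a and Mef2c kept their direction and call in all 14 alternatives; Pou2f2 and Tcf4 kept theirs too, not called. Spib lost its call in 9: its log2 fold change was 0.69 by limma-voom, 0.68 with the replicate block, 0.86 without both replicates numbered 4, and 0.56 to 0.78 in the 6 of 8 fits without 1 library that lost it (adjusted p up to 0.101), the range over all 8 being 0.56 to 0.86. Tcf3 ran from -0.29 to -0.17 with single libraries left out. Genes called numbered 990 to 1599 and genes called lower 372 to 659 with single libraries left out, lowest without Faslpr replicate 2, and 403 were lower without both replicates numbered 4. Members called lower ranged from 0 to 1. The cause was not tested.

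Ratio differences passed with Cr2 and Fcer2a left out of the sum for Pax5 (0.55), Bcl11a (0.45), Spib (-1.34), Tcf4 (-1.63), Pou2f2 (-2.16) and Tcf3 (-2.24), and with FPKM at 0.58, 0.51, -1.30, -1.56, -2.12 and -2.20 in the same order. With single libraries left out they ran from 0.43 to 0.60 for Pax5, 0.31 to 0.51 for Bcl11a, -1.68 to -1.22 for Spib, -1.88 to -1.41 for Tcf4, -2.39 to -1.96 for Pou2f2 and -2.54 to -2.03 for Tcf3, passing only without Faslpr replicate 3. Ebf1 turned positive with FPKM (0.12). Spi1 ran from -0.16 to 0.28, turning to -0.12 without EAF2Faslpr replicate 1, -0.07 without EAF2Faslpr replicate 3 and -0.16 without Faslpr replicate 3. The cause of the turns of Ebf1 and Spi1 was not tested. The passing ratios share the smallest exact permutation p, 0.0286. Their adjusted p fell from 0.0514 to 0.0429 once Bcl11a also reached it, through the adjustment over the 9 factors. That adjustment counts the ratios of Spib, Tcf4, Pou2f2 and Tcf3, so the passing of Pax5 and Bcl11a rests partly on them.

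Same-numbered libraries deviated together only weakly (correlations 0.128, 0.168, 0.0639 and -0.0501; 2 of 4 EAF2Faslpr libraries correlated best with their own number), so the numbers were not taken as pairs. With the replicate block 1425 genes were called, 5 members among them, Spib not.

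Depth limits Spi1, Bcl11a and Ebf1 most, with 9, 15 and 25.1 estimated reads in their lowest libraries.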

Other observations

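The authors' FPKM values carry an effective transcript length, recovered as estimated count over FPKM and depth, which depends on which transcripts were estimated. For Ebf1 it was 5851 to 6184 bases in EAF2Faslpr and 6203 to 9114 bases in Faslpr libraries. The gap between these ranges is smaller than the rounding of FPKM allows to be told, so they cannot be called apart. Ebf1 differed 4.24-fold in mean FPKM and 3.52-fold in mean CPM. The estimates rest on 25.1 to 215 Ebf1 reads per library and on FPKM values rounded to 2 decimals. For Mef2c the ranges were 6359 to 6611 and 6556 to 8054 bases, with overlap. Pax5 (8161 to 8169 and 8109 to 8169 bases) and Tcf3 (2865 to 2867 and 2866 to 2868 bases) had nearly fixed lengths. Pou2f2 varied within both groups, from 5717 to 6803 and from 5748 to 6506 bases. These lengths carry no test.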
